A study of Equus caballus with 14 samples.

Results

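Pregnant and non-pregnant corpora lutea of mares were compared at day 11 after ovulation. The comparison rests on 8 of the 14 poly(A) RNA-seq libraries of the series, chosen by their labels as all those of day 11. The 4 pregnant libraries came from the mares Emma, Kate, Gisela and Cornelia, and the 4 non-pregnant ones from Roanie, Kiwi, Kate and Emma. All were biopsies of the corpus luteum, taken through the vagina of healthy cycling light breed mares. The 8 libraries thus come from 8 glands of 6 mares. Emma and Kate stand on both sides with a different gland each time, so the libraries are not all independent. In both of these mares the pregnant gland was sampled first, by 73 days in Emma and 20 days in Kate, so status and order within a mare cannot be told apart. The gland labelled pregnant in Kate at day 11 is labelled non-pregnant at day 13, and it is used here as labelled. Of the 8 libraries 6 were taken in June and 2 on 17 August, those of Cornelia (pregnant) and Emma (non-pregnant).

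The corpus luteum is the gland that forms from the ovulated follicle and secretes progesterone, the hormone that holds the uterus in a state fit for an embryo. In a mare that is not pregnant, prostaglandin from the uterus ends the life of the gland, and in a pregnant mare a mobile conceptus keeps that signal away so that the gland goes on working. The comparison on day 11, before the gland would regress, asks whether luteal RNA already differs with an embryo present.

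Total counts ran from 23971705 to 31657730 per library. Counts sufficed for a test in 14304 of 30371 genes, and 8537 of them, called the abundant genes below, averaged 10 CPM or more (CPM are counts scaled to the size of the library). Genes carry Ensembl identifiers in the table, and 0 of these could be paired with a symbol here. Genes are therefore given by identifier, no role is stated for them, and the marker genes of the gland were not checked.

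Pregnant and non-pregnant glands differed little in most genes at day 11. In the 8537 abundant genes the size of the log2 fold change had a median of 0.0788, and 95% of them were under 0.385. The group means differed by more than 2-fold in 44 genes, of which 4 (0.0469%) were higher and 40 (0.469%) lower in pregnancy. In all 4 higher genes the highest of the 8 values was that of Gisela, and in none of them were the groups apart. Among the 40 lower genes the highest value was that of Roanie in 21, Kiwi in 12, Kate in 6 and Emma in 1, each time the non-pregnant gland. In 6 of these 40 every pregnant library was below every non-pregnant one. For 94.8% of the abundant genes the 95% confidence interval of the fold change held no value beyond 2-fold, and for 78.8% none beyond 1.5-fold.

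The quasi-likelihood test of edgeR called 0 of 14304 genes (0%) at the adjusted threshold of 0.05. An unadjusted p under 0.05 was seen in 482 genes, or 3.37% of those tested, which is under the nominal 5%. Of these, 129 were higher (0.902%) and 353 lower (2.47%). The size of the excess of lower genes depended on the libraries used and on the fit. It remained with RLE size factors (145 higher, 340 lower), with biopsy month as a covariate (121 and 366) and without Kiwi (161 and 453). With the mare as a random block in limma the counts were 437 and 778, and as a fixed block over the 8 libraries 616 and 1216. Elsewhere it shrank. Without Cornelia 160 were higher and 174 lower, and in the 6 June libraries alone 162 were higher and 192 lower. In the fit of all 14 libraries the excess turned, with 336 higher and 302 lower, and with the mare as a block there 407 were higher and 364 lower. August held 1 library of each status and gives no value of its own. DESeq2, an alternative test on the same counts, called 11 genes (0.0773%), 9 of them lower in pregnancy.

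The status groups did not overlap in 239 genes. In 93 genes (0.65%) all 4 pregnant libraries were above all 4 non-pregnant ones, and in 146 (1.02%) all were below. Some genes separate by chance with 4 libraries against 4, and these shares were not tested against that. Such genes were a larger share of the scarce transcripts: 3.73% of the 1342 genes under 1 CPM, 1.88% of the 4425 genes from 1 to 10 CPM, 1.27% of the 7084 genes from 10 to 100 CPM and 1.1% of the 1453 genes at 100 CPM and over. With a scaling by the library total alone the counts were 58 and 184, so the balance of the directions depends on the scaling.

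Of the genes that leaned upward in pregnancy, ENSECAG00000041323 had the smallest p. The non-pregnant glands held 6.92 CPM in Roanie, 6.15 in Kiwi, 8.95 in Kate and 9.47 in Emma. The pregnant glands held 11.9 CPM in Emma, 19.9 in Kate, 15.5 in Gisela and 14.9 in Cornelia. The groups did not overlap, but the pregnant value of Emma was close to the non-pregnant value of the same mare. The log2 fold change came to 0.98 ± 0.20 (SE), and the adjusted p was 1 in edgeR and 0.0191 in DESeq2. No alternative gave this gene a value outside that range. The second such gene, ENSECAG00000041112, was at 13.8 ± 2.17 CPM (SD, n = 4) in non-pregnant glands and 21.2 ± 2.21 CPM (SD, n = 4) in pregnant ones. Its highest non-pregnant value was 15.9 CPM in Roanie and its lowest pregnant value 19.6 CPM in Gisela. Within mares it differed by a log2 of 0.55 in Emma and 0.88 in Kate, so this small difference was present in both. The log2 fold change came to 0.62 ± 0.14 (SE), and the adjusted p in edgeR was 1 here too.

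Of the genes that leaned downward, ENSECAG00000042557 had the smallest p. Non-pregnant glands held 17.5 CPM in Roanie, 8.90 in Kiwi, 11.7 in Kate and 4.82 in Emma. Pregnant glands held 3.44 CPM in Emma, 2.31 in Kate, 2.14 in Gisela and 1.83 in Cornelia. The pregnant values lay close together, while the non-pregnant ones spread widely and that of Emma came near the pregnant range. The log2 fold change came to -2.14 ± 0.38 (SE), and the adjusted p was 1 in edgeR and 0.000117 in DESeq2. ENSECAG00000012152 had the same shape, at 6.42 to 35.9 CPM in non-pregnant glands and 1.42 to 3.42 CPM in pregnant ones. Its log2 fold change came to -2.86 ± 0.54 (SE), and the adjusted p was 1 in edgeR and 4.64e-05 in DESeq2. Over the alternatives its adjusted p ran from 4.64e-05 to 1, and that of ENSECAG00000042557 from 0.000117 to 1. These genes were picked for their p-values in this comparison.

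**Figure D1:**
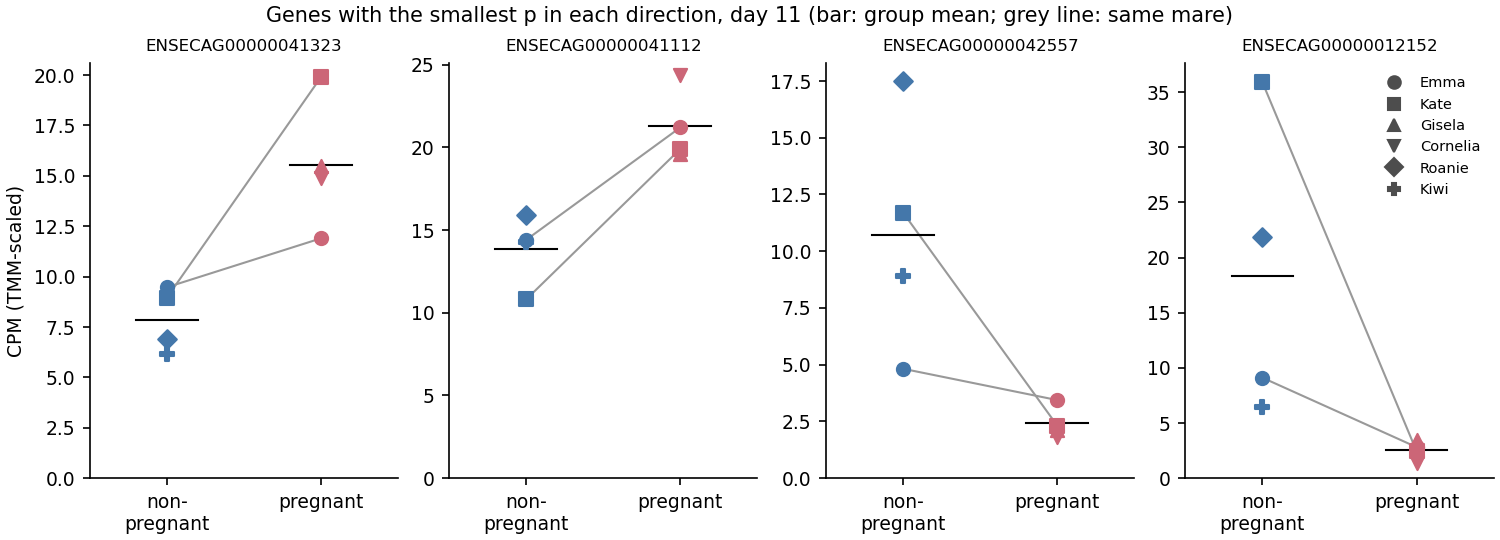
TMM-scaled CPM of the 2 genes with the smallest p in each direction, by status at day 11; each symbol is 1 library, its shape gives the mare, the bar is the group mean, and grey lines join the libraries of Emma and of Kate. The groups do not overlap in any panel, and none of the 4 genes passed the threshold in edgeR without a block.

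Glands of 1 mare were closer to each other than glands of 1 status. Of 28 pairs of day 11 libraries, 2 pairs hold glands of the same mare and different status. They differed by more than 2-fold in 47 genes (Emma) and 71 genes (Kate) of the 8537. In 12 pairs of different mares with the same status, that number ran from 177 to 362 with a median of 237. In 14 pairs of different mares with different status it ran from 176 to 371 with a median of 287.5. Both same-mare pairs were thus below every other pair, whatever the status. The SD of the log2 difference over genes was 0.281 in Emma and 0.279 in Kate, against 0.39 to 0.528 between mares of the same status. The pair sampled on the same August date, Cornelia and Emma, differed in 296 genes. Pairs share libraries, so these counts are a description without a test.

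**Figure D2:**
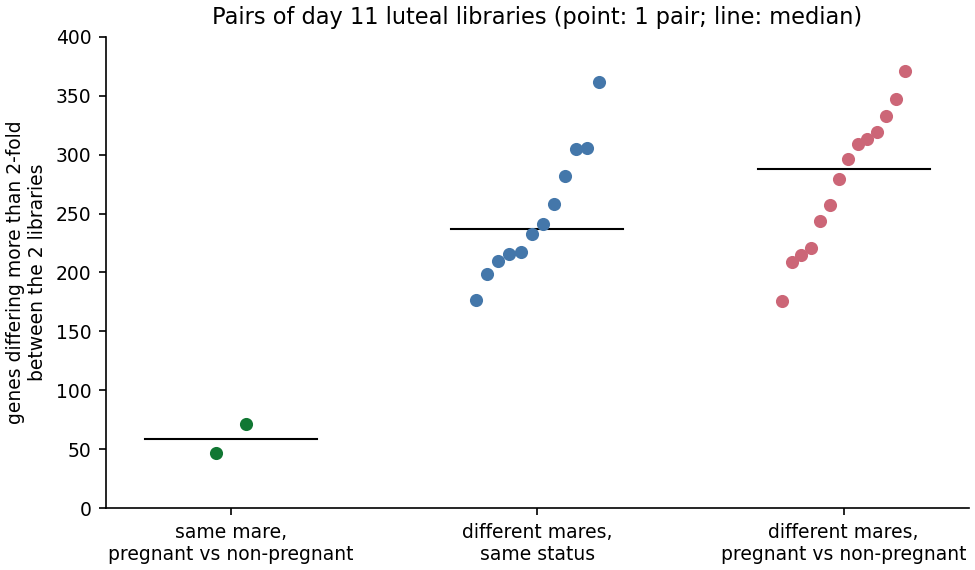
Number of the 8537 abundant genes that differed by more than 2-fold in each pair of day 11 libraries; each point is 1 pair and the line is the median of its class. The same-mare pairs sit at 47 and 71, below all pairs of different mares, which start at 176.

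Within a mare there is 1 library for each status, so the differences have no replicate, and the intervals given cover counting error only. In Emma 20 genes (0.234%) were more than 2-fold higher and 27 (0.316%) more than 2-fold lower in the pregnant gland. In Kate 14 genes (0.164%) were higher and 57 (0.668%) lower. The difference was within 1.5-fold for 96.3% of genes in Emma and 95.8% in Kate.

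In Emma the gene with the largest excess in the pregnant gland was ENSECAG00000000658, at 83.2 CPM in the pregnant gland and 19.8 CPM in the non-pregnant one. In Kate the same gene went the other way, with 21.4 CPM in the pregnant and 34.5 CPM in the non-pregnant gland. In the non-pregnant gland of Kiwi it stood at 785 CPM, so over all 8 libraries it was lower in pregnancy, with a log2 fold change of -2.19 ± 1.16 (SE) that became 0.75 without Kiwi. ENSECAG00000027679 came next, at 481 against 135 CPM in Emma, while Kate held 194 against 204 CPM. Among genes lower in Emma, ENSECAG00000000972 was at 2.92 CPM in the pregnant gland and 18.7 CPM in the non-pregnant one. In the pregnant gland of Gisela it reached 76.0 CPM, and the 5 libraries other than these of Emma and Gisela held 0.47 to 3.72 CPM. For ENSECAG00000000658 and ENSECAG00000000972, mares of 1 status were thus further apart than the glands of Emma.

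In Kate the gene with the largest excess was ENSECAG00000013096, at 11.3 CPM in the pregnant gland and 1.80 CPM in the non-pregnant one, a log2 difference of 2.61 with a 95% counting interval from 2.23 to 3.10. In Emma the same gene was at 16.5 against 10.4 CPM, a log2 difference of 0.66. The low non-pregnant value of Kate stood below all other libraries, whose lowest was 5.44 CPM in Kiwi. ENSECAG00000027701 was at 24.8 against 5.78 CPM in Kate and at 12.5 against 11.8 CPM in Emma, where the counting interval of the log2 difference, from -0.14 to 0.30, includes 0. The same gene was therefore far apart in 1 mare and not distinguishable at this depth in the other.

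Both mares together gave 9 genes past 2-fold in the same direction and 0 past 2-fold in opposite directions. Of the 9, 8 (0.0937% of the 8537 genes) were lower and 1 (0.0117%) higher in the pregnant gland. The 8 lower genes are 29.6% of those lower in Emma and 14% of those lower in Kate. Over all 8537 genes the difference had the same sign in both mares for 61.3%. Pearson's r between the mares was 0.36 and Spearman's rho 0.33, across genes, which are not independent replicates. The 2 differences share no library, but they share the scaling and the order of sampling, with the pregnant gland first.

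**Figure D3:**
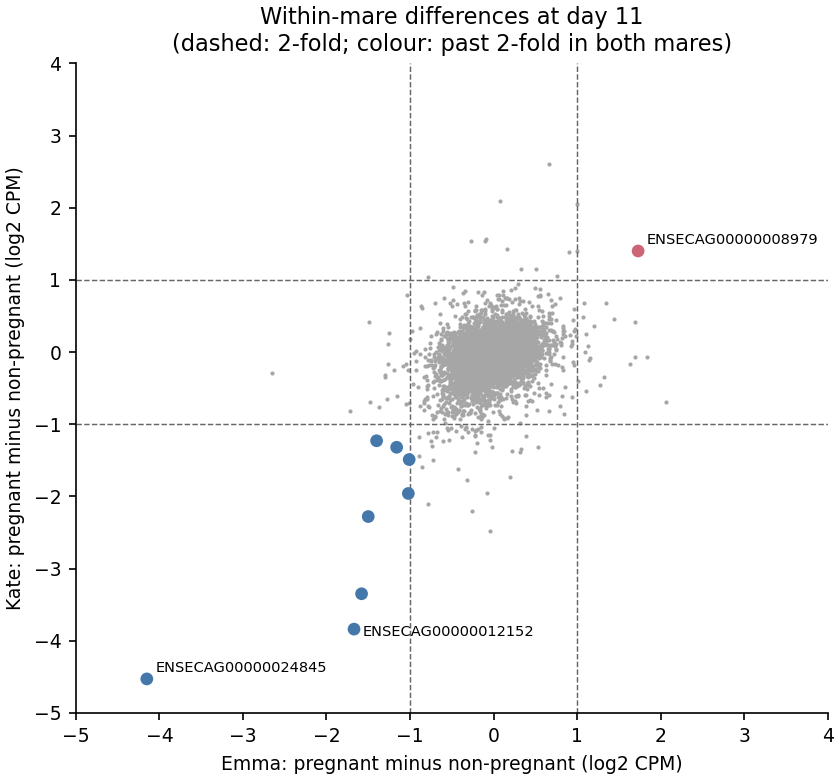
Difference in log2 CPM between the pregnant and the non-pregnant gland of Emma (horizontal) and of Kate (vertical) for 8537 genes; dashed lines mark 2-fold, and coloured points are past it in both mares. The 8 blue genes at lower left were lower in both pregnant glands, the 1 red gene at upper right was higher in both, and the opposite corners are empty.

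ENSECAG00000024845 differed most in both mares. In Emma it was at 0.999 CPM (27 counts) in the pregnant gland and 18.9 CPM (582 counts) in the non-pregnant one, a log2 difference of -4.15 with a counting interval from -4.86 to -3.69. In Kate it was at 2.22 CPM (53 counts) and 52.9 CPM (1620 counts), a log2 difference of -4.53 with an interval from -4.99 to -4.18. The other mares were split: the pregnant glands of Gisela and Cornelia held 2.75 and 1.77 CPM. Of the non-pregnant glands, that of Roanie stood above both at 7.16 CPM and that of Kiwi below both at 0.37 CPM. The lowest of the 8 values was thus that of a non-pregnant gland. In these other mares the mean log2 CPM was higher in pregnancy by 0.35, while edgeR on them alone gave a log2 fold change of -0.73. Over all 8 libraries the log2 fold change was -3.35 ± 1.03 (SE), and the adjusted p in edgeR was 1. ENSECAG00000012152, described above, came second with log2 differences of -1.67 in Emma and -3.84 in Kate.

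The gene higher in both was ENSECAG00000008979, at 33.0 against 9.89 CPM in Emma and 45.8 against 17.3 CPM in Kate. Roanie, non-pregnant, held 37.7 CPM, above the pregnant glands of Gisela with 29.0 and Cornelia with 19.7 CPM, so the groups overlapped. ENSECAG00000022462 followed at the edge of 2-fold, with a log2 difference of 1.0 in Emma and 1.41 in Kate. It held 47.5 and 50.9 CPM in their pregnant glands, and 26.3 to 32.2 CPM in those of Gisela and Cornelia. Roanie, with 31.4 CPM, lay within that range.

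The 4 mares sampled once at day 11, Gisela and Cornelia against Roanie and Kiwi, entered the choice of these 9 genes only through the minimum of 10 CPM over all 8 libraries. That minimum was not neutral to status. ENSECAG00000012152 averaged 2.52 CPM in pregnant and 18.3 CPM in non-pregnant glands, and ENSECAG00000024845 averaged 1.93 and 19.8 CPM. Both reached the minimum only through the non-pregnant libraries, which include Roanie and Kiwi. Further genes of the 8 also lay mostly under 10 CPM in pregnant glands, with values of 5.71 to 11.1 CPM and of 1.48 to 11 CPM. The shares that follow therefore include genes kept through their non-pregnant values. Of the 8 genes lower in Emma and Kate, 6 had a lower mean log2 CPM in the pregnant glands of these mares as well, all 6 by more than 2-fold. For all 8537 genes those shares were 49.5% and 1.17%, but most of these genes differed little, while the 8 were chosen for large differences. The log2 difference over the 8 genes ran from -2.39 to 0.72 with a median of -1.41. In 2 of the 8 both pregnant values were below both non-pregnant ones, against 17.1% of all 8537 genes. Cornelia was the lowest library in 5 of them, and Roanie the highest in 4 and the non-pregnant gland of Kate in 3. Kiwi, although non-pregnant, lay within or below the pregnant range in 6 of the 8 and was the lowest library in 2.

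**Figure D4:**
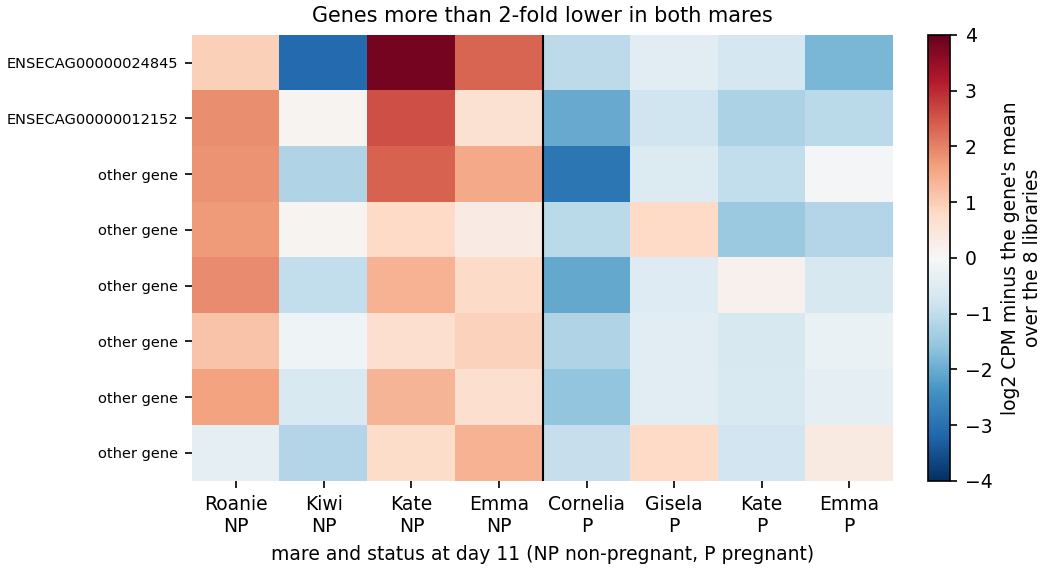
Log2 CPM, minus the gene's mean over the 8 libraries, of the 8 genes more than 2-fold lower in the pregnant gland of both Emma and Kate (rows) in each library (columns); the vertical line parts non-pregnant from pregnant glands. Roanie, Kate and Emma non-pregnant are mostly red, and the Kiwi column, also non-pregnant, is mostly blue or near white.

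The same contrast was then tested in edgeR with a fixed block for each mare, which sets each mare against herself. Only Emma and Kate carry the effect in that fit, and 1 residual degree of freedom is left, so that nearly all of the spread is borrowed from other genes. It called 125 genes (0.874% of 14304), 27 higher (0.189%) and 98 lower (0.685%) in pregnancy, where the unblocked fit called 0. The 9 genes past 2-fold in both mares were among them. ENSECAG00000024845 had a log2 fold change of -4.43 with an adjusted p of 1.79e-06 in this edgeR fit, and ENSECAG00000012152 -2.81 with 0.00835. ENSECAG00000008979 had 1.57 with 0.000711, ENSECAG00000022462 1.20 with 0.00317 and ENSECAG00000041112 0.71 with 0.0452. Over all alternatives the adjusted p of each of these 5 genes reached 1. The median log2 fold change was -0.85 over the 98 lower genes and 0.88 over the 27 higher ones. When the mare was instead a random block in limma with voom, or a fixed block in all 14 libraries in edgeR, 0 genes were called, with 1215 and 771 genes at an unadjusted p under 0.05.

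The 4 mares sampled once have no weight in the blocked effect, though they entered the low-count filter and the scaling. Of the 98 genes called lower, 64 (65.3%) had a lower mean log2 CPM in the pregnant glands of these mares, against 50.1% of all 14304 genes. More than 2-fold lower were 25 of the 98 and more than 2-fold higher were 6, against 3.03% and 1.89% of all genes. Most of all genes differed little, however, while the 98 were called for their differences. Both pregnant values were below both non-pregnant ones in 18 of the 98 (18.4%), against 16.9% of all genes. Of the 27 genes called higher, 11 (40.7%) had a higher mean log2 CPM in the pregnant glands of these mares, against 49.9% of all genes. Both pregnant values were above both non-pregnant ones in 1 of the 27 (3.7%), against 17.5%. The share with separate values was thus near the background for the lower genes and under it for the higher ones. These shares were not tested, since genes are not independent. The median log2 difference in these mares was -0.30 over the 98 genes and -0.10 over the 27, against 0 over all genes. The fit on these mares alone called 0 genes in edgeR, while 647 had an unadjusted p under 0.05.

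**Figure D5:**
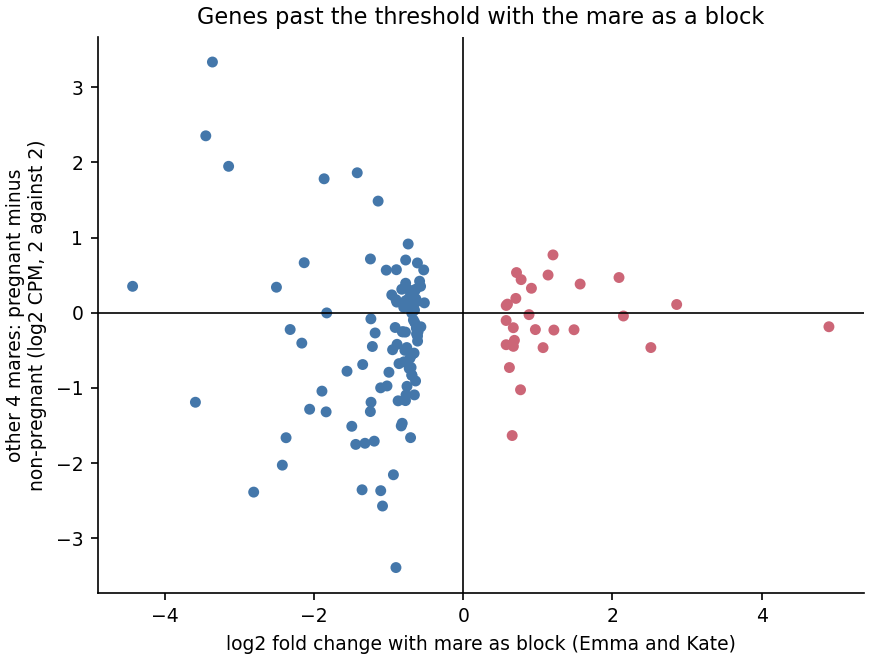
For the 125 genes called with the mare as a block, the log2 fold change of that fit, which rests on Emma and Kate (horizontal), against the mean log2 CPM difference of Gisela and Cornelia (pregnant) minus Roanie and Kiwi (non-pregnant). Of the 98 blue genes 64 lie below the zero line, and of the 27 red genes 11 lie above it.

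The glands of Emma and Kate were sampled again at day 13, which gives a second reading of the same gland pairs from other libraries. Of the 27 genes more than 2-fold lower in Emma at day 11, 17 were lower at day 13 and 5 of them past 2-fold, and of the 20 higher genes 17 were higher and 6 past 2-fold. Of all abundant genes, 50.2% were lower and 49.8% higher in that gland pair at day 13, with 0.234% and 0.445% past 2-fold. The median log2 difference went from -1.27 to -0.54 over the 27 genes and from 1.24 to 0.50 over the 20. In Kate 54 of the 57 lower genes were lower at day 13, 23 of them past 2-fold, although both of her glands are then labelled non-pregnant. Of all abundant genes, 46.6% were lower in her first gland at day 13, and 1.79% were so by more than 2-fold. Both counts stand above these shares, but the 57 genes were chosen for large differences between the same glands, while most abundant genes differed little. This limit holds for the genes chosen in Emma as well. Of the 14 genes higher in Kate, 8 were higher at day 13, 5 of them past 2-fold, where 53.4% and 0.234% of all abundant genes were. Over the 57 genes the median log2 difference went from -1.23 at day 11 to -0.90 at day 13. The first gland of Kate was labelled pregnant at day 11, and both glands had been biopsied before day 13. Effects of the gland, its earlier status and the biopsy therefore cannot be told apart.

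For the 8 genes lower in both mares at day 11, the count of lower genes differed between the mares at day 13. In Emma 1 of the 8 was lower in the pregnant gland, 0 past 2-fold, and in Kate 7 were lower, 3 of them past 2-fold. These counts rest on signs, and some differences were near 0 in both mares. The log2 differences of Emma and Kate were 0 and -0.07 in 1 such gene, and 0.09 and -0.1 in another. ENSECAG00000024845 was at 0.455 CPM in the pregnant and 0.952 CPM in the non-pregnant gland of Emma at day 13, both under the day 11 level of the same mare in that non-pregnant gland. In Kate it was at 1.19 CPM in the first and 2.44 CPM in the second gland. ENSECAG00000012152 remained apart in Kate, with 2.67 against 28.4 CPM, and came together in Emma, with 4.42 against 3.63 CPM. Libraries of 1 gland on 2 days are not independent, and day 13 followed an earlier biopsy.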

How the data were processed

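Poly(A) RNA-seq libraries were made from luteal biopsies with a directional kit, per the labels' protocols. The deposited file holds raw read counts per Ensembl gene. Trim Galore, STAR and EquCab3.0 are named in the submitters' processing notes with versions, counting tool and annotation not given in the sources used here, so counts of near-identical genes are uncertain. Columns were matched to samples by library name, and mares and dates come from the titles.

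The 8 day 11 libraries, with 23971705 to 31657730 counts, were fitted alone. Genes kept by filterByExpr hold 99.94% of counts. TMM-scaled CPM are given, and log2 CPM use a prior count of 2. Testing used the quasi-likelihood method of edgeR 4.0.16 (R 4.3.3), with 1 mean for each status, no block, Benjamini-Hochberg adjustment over all genes tested and a threshold of 0.05. Standard errors come from the log2 fold change and its F statistic. Within mares, 1 library was subtracted from the other in genes averaging 10 CPM or more. Their counting intervals are exact binomial (Clopper-Pearson, 95%) and cover counting error only. DESeq2 1.42.0 and limma 3.58.1 served as alternatives. Scripts were tested on simulated counts.

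The mare pairs Emma's and Kate's libraries by the labels. Deviations from the status means correlated at 0.42 in Emma and 0.68 in Kate, against -0.54 to 0.19 over 14 pairs of different mares. P-values of the unblocked fit ignore this.

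Genes to be named were to carry symbols. Since 0 identifiers matched, the rule's fallback was used: by identifier, the 2 genes per direction of smallest p that averaged 1 CPM or more, the 2 per direction with the largest difference in each mare, and the 2 per direction whose smaller difference of both mares was largest. The planned gene lists and cell type markers could not be applied. Members, rules and lists were chosen with earlier results of these data known; the use of the other 4 mares and of day 13 was chosen after the data were seen.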

Additional observations from a re-analysis of the deposited data

Results flagged for a closer look

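The highest and lowest value of each status group were set against the rest in 26 sets of 4 libraries, and in 2 sets a value stood apart. A chance rate of about 1 in 20 does not apply here, since both genes flagged had been named for large differences between libraries. ENSECAG00000000658 was at 785.5 CPM in the non-pregnant gland of Kiwi, against 19.79 to 34.51 CPM in the other non-pregnant glands. ENSECAG00000000972 was at 76.02 CPM in the pregnant gland of Gisela, against 1.736 to 3.022 CPM in the other pregnant glands.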

How the results depend on the processing

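The count of genes called was 0 in edgeR with RLE size factors, both other low-count filters, biopsy month as a covariate, all 14 libraries with or without the mare as a replicate block, the 4 mares sampled once, the June libraries alone (added after the data were seen) and each library left out (0 to 0), and 0 in limma with the mare as a random replicate block. It was 11 in DESeq2 and 125 with the mare as a fixed replicate block over the 8 libraries. The 482 genes at an unadjusted p under 0.05 became 836 with no low-count filter, where 21448 genes were tested, 1215 in limma and 1832 and 771 with the mare as a fixed replicate block in 8 and in 14 libraries. Leaving out 1 library gave 334 to 634. The genes past 2-fold within Emma and within Kate became 301 and 355 at a minimum mean of 1 CPM, and 14 and 19 at 50 CPM. Those lower in both mares became 45 and 2. The 1 gene higher in both became 10 at 1 CPM and 0 at 50 CPM, and 3 with RLE size factors or a prior count of 0.5. Non-overlapping genes, also tried after the data were seen, became 58 higher with scaling by the library total, and 48 higher and 58 lower at a minimum mean of 10 CPM; the cause of these shifts was not tested. Of 12 genes named, 8 kept their direction under all 19 alternatives. The others turned as follows. ENSECAG00000000658 was at 0.72 and 0.56 with the mare as a fixed replicate block in 8 and in 14 libraries and at 0.75 without Kiwi, with leave-one-out values from -2.61 to 0.75. ENSECAG00000000972 was at -1.63 and -1.70 in these block fits, at -0.21 in limma and at -1.28 without Gisela, with a leave-one-out range of -1.28 to 3.30. ENSECAG00000027679 and ENSECAG00000027701 were at -0.32 and -0.41 in the 4 mares sampled once; their leave-one-out ranges were -0.06 to 0.49, lowest without Emma's pregnant library, and -0.03 to 0.79, lowest without Kate's. Scarce genes, with fewer counts, were measured less precisely: the median SE of the log2 fold change was 0.496 in genes under 1 CPM and 0.143 in genes from 10 to 100 CPM.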
